A study of Mus musculus with 4 samples.

Results

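A set of 10 genes of serine synthesis, mitochondrial folate metabolism, asparagine synthesis and amino acid transport were followed across 4 libraries of regulatory T cells. They were taken by symbol from the raw count table, which lists 19044 genes, and all 10 were found: Phgdh, Psat1, Psph, Shmt2, Mthfd2, Asns, Slc7a5, Slc3a2, Slc1a5 and Slc7a1. The cells came from spleen and peripheral lymph nodes of untreated mice. The groups were aTreg and rTreg cells of Ripk1fl/fl Foxp3-YFP-Cre mice, labelled Ripk1 knockout, and aTreg and rTreg cells of Foxp3-YFP-Cre mice, labelled WT. Both genotypes carried the Foxp3-driven Cre with its yellow fluorescent protein, and Cre is thus driven where Foxp3 is expressed. In this field r and a stand for resting and activated, which the labels do not spell out. Each of the 4 combinations gave 1 library. The labels give no number, sex or age of the mice, no pooling, and no word on whether a genotype's 2 libraries share animals. A p-value of the main fit rests on how far the genotype ratio differs between states, with a spread partly borrowed from other genes. That spread may be technical and does not measure the spread between animals. If the 2 libraries of a genotype share animals, genotype has no replicate.

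Serine can be taken up or made from a glycolytic intermediate by PHGDH, PSAT1 and PSPH in turn. SHMT2 and MTHFD2 then move a carbon unit of serine onto folate in mitochondria, and such units feed purine, thymidylate and methionine synthesis. Asparagine is made by ASNS. SLC7A5 with its heavy chain SLC3A2 brings in large neutral amino acids, SLC1A5 glutamine and other small neutral amino acids, and SLC7A1 arginine and lysine. T cells draw on these routes when they grow and divide, and in many cell types the transcription factor ATF4 raises several of these genes when amino acids are short.

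Promoter windows of 300 bases, 250 before and 50 after the RefSeq start site on GRCm38.p6, were held for 8 of the 10 genes, 10 windows in all. The windows of the 3 serine enzymes (for Psat1 the upstream of its 2 starts), of Shmt2, of Mthfd2 and of Asns are shown because 2 serine enzymes and both folate enzymes were higher in the libraries labelled knockout, Psph was not, and Asns carries the element through which ATF4 is best known to act. All these genes lie on the minus strand, and each window is written in the direction of transcription. The Phgdh window is chr3:98339920-98340219, the Psat1 window chr19:15925010-15925309, the Psph window chr5:129787204-129787503, the Shmt2 window chr10:127522395-127522694, the Mthfd2 window chr6:83317555-83317854 and the Asns window chr6:7693160-7693459. Capitals mark CCAAT boxes (CCAAT or its reverse ATTGG), GC boxes (GGGCGG or CCGCCC) and the composite element that binds C/EBP and ATF proteins (TGATGNAA).
Phgdh: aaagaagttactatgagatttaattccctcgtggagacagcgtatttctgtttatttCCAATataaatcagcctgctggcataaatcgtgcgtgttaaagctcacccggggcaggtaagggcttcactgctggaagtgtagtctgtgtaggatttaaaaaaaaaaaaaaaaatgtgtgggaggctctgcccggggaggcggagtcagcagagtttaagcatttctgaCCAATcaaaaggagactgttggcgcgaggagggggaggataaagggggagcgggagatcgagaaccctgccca
Psat1, upstream start: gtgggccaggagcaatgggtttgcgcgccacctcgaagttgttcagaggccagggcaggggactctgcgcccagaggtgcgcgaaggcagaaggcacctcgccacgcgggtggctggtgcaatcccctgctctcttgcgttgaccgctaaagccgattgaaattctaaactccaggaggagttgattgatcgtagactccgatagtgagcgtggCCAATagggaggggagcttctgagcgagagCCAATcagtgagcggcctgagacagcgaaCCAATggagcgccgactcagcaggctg
Psph: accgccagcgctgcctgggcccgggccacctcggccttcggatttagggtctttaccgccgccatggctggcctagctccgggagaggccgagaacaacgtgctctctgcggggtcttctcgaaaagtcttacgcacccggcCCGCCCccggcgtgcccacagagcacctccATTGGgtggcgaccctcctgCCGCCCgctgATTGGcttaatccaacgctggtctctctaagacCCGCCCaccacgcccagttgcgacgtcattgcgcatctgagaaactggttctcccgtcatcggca
Shmt2: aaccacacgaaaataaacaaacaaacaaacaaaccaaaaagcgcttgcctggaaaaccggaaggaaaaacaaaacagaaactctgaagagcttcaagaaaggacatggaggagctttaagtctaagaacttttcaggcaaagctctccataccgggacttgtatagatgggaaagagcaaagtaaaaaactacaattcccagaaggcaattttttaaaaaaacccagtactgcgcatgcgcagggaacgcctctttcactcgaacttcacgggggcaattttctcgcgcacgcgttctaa
Mthfd2: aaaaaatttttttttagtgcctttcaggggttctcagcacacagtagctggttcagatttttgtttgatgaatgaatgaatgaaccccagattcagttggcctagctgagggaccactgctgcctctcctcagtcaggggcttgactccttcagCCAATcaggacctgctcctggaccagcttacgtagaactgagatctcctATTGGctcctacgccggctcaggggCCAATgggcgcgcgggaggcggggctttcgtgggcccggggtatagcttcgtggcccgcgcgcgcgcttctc
Asns: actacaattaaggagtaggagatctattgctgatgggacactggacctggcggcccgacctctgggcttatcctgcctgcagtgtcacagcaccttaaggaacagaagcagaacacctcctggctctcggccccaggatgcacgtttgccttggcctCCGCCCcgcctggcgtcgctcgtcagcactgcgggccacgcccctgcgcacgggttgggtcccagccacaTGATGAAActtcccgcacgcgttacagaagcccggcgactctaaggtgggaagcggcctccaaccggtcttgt

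The composite element TGATGNAA, searched on both strands, lay in 1 of the 8 genes' windows, that of Asns, starting 23 bases before the start site. Over all 32851 RefSeq windows of this length 3.97% held it. The E-box CACGTG, which MYC binds, was in none of the members' windows and in 7.15% of all windows. At least 1 CCAAT box lay in the windows of 5 genes, against 37.4% of all windows, and at least 1 GC box in those of 5 genes, against 35.7% of all windows. Members are counted here per gene and the shares per window, and Psat1 and Slc7a1 have 2 windows each, so the comparison is not like for like. The Psat1 window had 3 CCAAT boxes, starting at positions −36, −6 and 24 from the start site, Mthfd2 had 3, Phgdh 2 and Psph 2. Shmt2, called higher for genotype, had 0 of the motifs searched, while Slc7a1, like Psph not called, had 1 CCAAT box. The motifs searched did not overlap in the windows printed. A match of letters is a description of the window, and the libraries do not measure binding.

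The libraries held 18857718 counts (KO-labelled aTreg), 20633355 (WT aTreg), 17588754 (KO-labelled rTreg) and 20868319 (WT rTreg). Ripk1, the floxed gene, was at 80.4 CPM (counts scaled to the library total) in KO-labelled aTreg, 77.3 in WT aTreg, 84.8 in KO-labelled rTreg and 84.1 in WT rTreg. These counts show no loss of Ripk1 mRNA (edgeR adjusted p = 0.658). A count over the whole gene cannot show a deletion of single exons. For this reason the term KO-labelled is used. Foxp3, which defines these cells, was at 655 CPM in KO-labelled aTreg, 692 in WT aTreg, 620 in KO-labelled rTreg and 692 in WT rTreg. Xist, the RNA of the inactive X chromosome, was at 0.212 and 0.284 CPM in KO-labelled aTreg and rTreg, against 337 and 301 CPM in WT aTreg and rTreg. The Y-linked gene Kdm5d had 47.6 CPM or more in all 4, so a difference in the sex makeup of the libraries cannot be told apart from genotype. The 10 markers of dividing cells summed to 1947 and 2136 CPM in KO-labelled aTreg and rTreg, against 667 and 946 CPM in WT aTreg and rTreg, and all 10 were called higher. Markers of other cells summed to less. The 6 B cell markers summed to between 14.0 and 24.4 CPM, and 4 cytotoxic lymphocyte markers to between 10.3 and 13.6 CPM. The 6 myeloid markers summed to 3.87 and 4.66 CPM in KO-labelled aTreg and rTreg, against 1.79 and 1.77 CPM in WT aTreg and rTreg. The 4 hemoglobin genes summed to 10.8 CPM in KO-labelled aTreg against 0.969 CPM in WT aTreg, and were higher in KO-labelled rTreg than in WT rTreg as well. The 5 plasma cell markers summed to 161 and 140 CPM in KO-labelled aTreg and rTreg, against 121 and 92.8 CPM in WT aTreg and rTreg, nearly all of it Xbp1 and Prdm1, which T cells also express.

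Libraries labelled knockout had more mRNA for the first and second enzymes of serine synthesis, but not for the third, in both states. The mitochondrial folate enzyme genes Shmt2 and Mthfd2 were higher too, and the glutamine transporter gene Slc1a5 was slightly lower. Genotype was tested over the 4 libraries with edgeR's quasi-likelihood method with state as an additive term, adjusted over the 9680 genes whose mean reached 5 CPM. Of the 10 members, 9 reached that level, and Asns did not. Of these 9, Psat1, Phgdh, Mthfd2 and Shmt2 were called higher, against 24.4% of all tested genes. Slc1a5 was called lower, against 22.8% of all tested genes. The Shmt2 and Slc1a5 calls were lost with DESeq2's test and with the states as replicates. The members' counts are a description, since the members were chosen with results known. The median log2 ratio of KO-labelled over WT over the 9 was 0.29 in aTreg and 0.11 in rTreg, where all tested genes had 0.0015 and 0.0076. No tested member was at least 2-fold apart between genotypes, which 6.12% of tested genes were in aTreg and 4.75% in rTreg. In bulk samples more cells that express a gene and more RNA in each cell cannot be told apart.

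**Figure D1:**
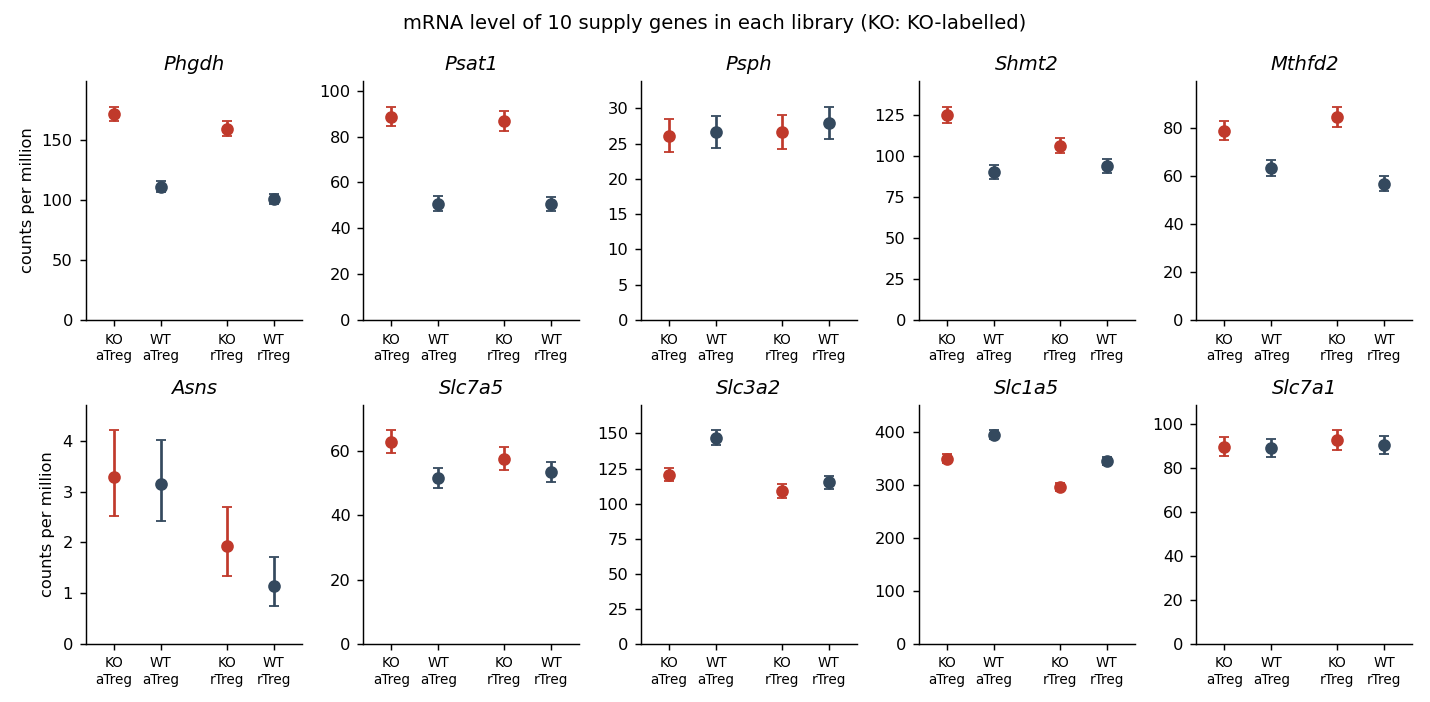
Level of each of the 10 genes in CPM (linear axes from 0, a separate scale per gene) in each of the 4 libraries, with bars for the exact 95% Poisson interval of the count. Phgdh, Psat1, Shmt2 and Mthfd2 are higher in the KO-labelled libraries in both states, Slc1a5 is lower, and the bars of all 4 libraries overlap for Psph and Slc7a1.

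Psat1 encodes the transaminase that makes phosphoserine, and it had the largest genotype change of the tested members. Its level was 88.7 CPM in KO-labelled aTreg against 50.7 CPM in WT aTreg, and 86.8 CPM in KO-labelled rTreg against 50.5 CPM in WT rTreg. Both KO-labelled libraries lay above both WT libraries, and the states of a genotype were nearly level. How many of all tested genes separate this way was not counted. The log2 ratio was 0.81 in aTreg and 0.79 in rTreg, with 95% counting intervals of 0.70 to 0.92 and 0.67 to 0.90. Over both states Psat1 was up by 0.80 on the log2 scale (SE 0.0698, edgeR adjusted p = 1.92e-06). A change of that size or more, in either direction, was found for 8.15% of the tested genes. The gene lies on GRCm38 chromosome 19, 15904678 to 15947337, minus strand, and a pseudogene on the opposite strand falls within it without sharing exons.

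Phgdh, which encodes the dehydrogenase that commits a glycolytic intermediate to serine, followed. It was at 172 CPM in KO-labelled aTreg against 111 CPM in WT aTreg, and at 159 CPM in KO-labelled rTreg against 101 CPM in WT rTreg. Both KO-labelled libraries lay above both WT libraries here too, again without a count over all tested genes. The log2 ratio of Phgdh was 0.63 in aTreg [0.56 to 0.71] and 0.67 in rTreg [0.59 to 0.75], and over both states it was up by 0.65 (SE 0.0648, edgeR adjusted p = 5.6e-06). A rise of that size or more was found for 7.33% of the tested genes. Phgdh (chromosome 3, 98313170 to 98339990, minus strand) has 22 other annotated loci, nearly all processed pseudogenes, that match it over at least 200 bases at 90% identity or more. Of these, 3 are in the count table (Gm7901, Gm9347 and Gm5847), and each had at most 0.967 CPM in any library. The sources used here do not say how reads that match several places were counted, and a share of the Phgdh level may have been lost to them or gained from them.

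Psph encodes the phosphatase that releases serine, the last step of the same route. It had 26.0 CPM in KO-labelled aTreg against 26.6 CPM in WT aTreg, and 26.6 CPM in KO-labelled rTreg against 27.9 CPM in WT rTreg. All 4 libraries lay within each other's counting error. Its log2 ratio was −0.03 in aTreg [−0.21 to 0.15] and −0.06 in rTreg [−0.24 to 0.12] (edgeR adjusted p = 0.76). The difference from its neighbours in the pathway can be read within a library, where scaling cancels. Per base of exon, Psat1 mRNA stood at 3.47 times Psph in KO-labelled aTreg against 1.94 times in WT aTreg, and at 3.32 times in KO-labelled rTreg against 1.84 times in WT rTreg. That ratio was higher by 0.84 log2 units in aTreg [0.63 to 1.05] and by 0.85 in rTreg [0.64 to 1.06], by counting error alone. The ratio of Phgdh to Psph was higher by 0.66 [0.47 to 0.85] in aTreg and by 0.73 [0.54 to 0.93] in rTreg. An exon of Psph (chromosome 5, 129765558 to 129787449, minus strand) overlaps Cct6a on the opposite strand, and whether counting used the strand is not given. Cct6a, a subunit of the chaperonin that folds actin and tubulin, was at 128 CPM in KO-labelled aTreg, 129 in WT aTreg, 130 in KO-labelled rTreg and 141 in WT rTreg.

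**Figure D2:**
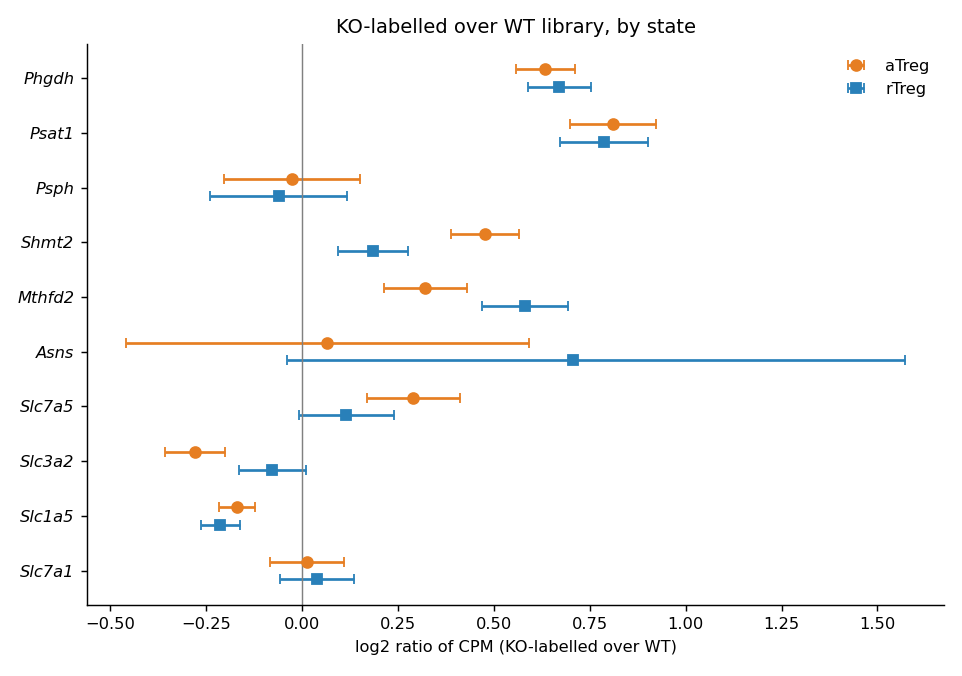
Log2 ratio of CPM, KO-labelled over WT library, for each gene in aTreg and rTreg (colors as in the legend), with 95% exact binomial counting intervals. Phgdh and Psat1 lie between 0.63 and 0.81 in both states, Psph and Slc7a1 span 0, and Asns has the widest intervals.

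Shmt2 and Mthfd2, which encode the consecutive mitochondrial enzymes that take a carbon unit from serine and oxidise it on folate, both rose. Shmt2 was at 125 CPM in KO-labelled aTreg against 90.3 CPM in WT aTreg, and at 107 CPM in KO-labelled rTreg against 94.2 CPM in WT rTreg. KO-labelled aTreg stood above the other 3 libraries. Shmt2 was up by 0.33 (log2, SE 0.077; edgeR adjusted p = 0.00345), a call that DESeq2 did not make (adjusted p = 0.051), nor edgeR with the states as replicates (adjusted p = 0.0901). Mthfd2 was at 78.8 CPM in KO-labelled aTreg against 63.2 CPM in WT aTreg, and at 84.5 CPM in KO-labelled rTreg against 56.7 CPM in WT rTreg. Here KO-labelled rTreg was highest, and both KO-labelled libraries lay above both WT libraries, a separation not counted over all tested genes. Mthfd2 was up by 0.45 (log2, SE 0.0779; edgeR adjusted p = 0.000431).

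The genotype ratio of both folate genes leaned to a different state. For Shmt2 it was 0.48 in aTreg [0.39 to 0.56] and 0.18 in rTreg [0.09 to 0.28], so the ratio in aTreg exceeded that in rTreg by 0.29 log2 units [0.17 to 0.42]. For Mthfd2 it was 0.32 in aTreg [0.21 to 0.43] and 0.58 in rTreg [0.47 to 0.69], a difference of −0.26 [−0.41 to −0.10]. These intervals hold counting error only, and with 1 library per combination the difference between states was not tested. Shmt2 (chromosome 10, 127517123 to 127522444, minus strand) shares exon bases with Ndufa4l2 on the opposite strand, which had at most 0.0485 CPM in any library. Mthfd2 lies on chromosome 6, 83305691 to 83325908, minus strand.

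Of the relatives of these enzymes, Shmt1, Mthfd1 and Mthfd1l did not pass the test, and Mthfd2l was too low to be tested. Shmt1, the cytosolic counterpart of Shmt2, had 22.0 CPM in KO-labelled aTreg against 19.5 CPM in WT aTreg, and 23.1 CPM in KO-labelled rTreg against 20.3 CPM in WT rTreg (edgeR adjusted p = 0.225). Per base of exon, Shmt2 stood at 7.11 times Shmt1 in KO-labelled aTreg against 5.77 times in WT aTreg, and at 5.75 times in KO-labelled rTreg against 5.79 times in WT rTreg. Mthfd2l, a second mitochondrial enzyme with the activity of MTHFD2, was low at 3.61 CPM in KO-labelled aTreg, 4.02 in WT aTreg, 2.79 in KO-labelled rTreg and 4.31 in WT rTreg. Mthfd1, which carries out the cytosolic steps, and Mthfd1l, which releases formate in mitochondria, had log2 ratios of 0.13 and 0.20 in aTreg and of −0.13 and 0.001 in rTreg (edgeR adjusted p = 0.985 and 0.301). The sign of the Mthfd1 change over both states, close to 0, turned with other scalings.

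Asns, which encodes asparagine synthetase, was the lowest member. Its counts were 62 in KO-labelled aTreg against 65 in WT aTreg, and 34 in KO-labelled rTreg against 24 in WT rTreg. That is 3.29 CPM against 3.15 CPM in aTreg, and 1.93 CPM against 1.15 CPM in rTreg. The log2 ratio was 0.06 in aTreg [−0.46 to 0.59] and 0.71 in rTreg [−0.04 to 1.57], so no difference between genotypes was detectable at this depth. Between states Asns was higher in aTreg, by 0.74 log2 units in the KO-labelled pair [0.15 to 1.42] and by 1.39 in the WT pair [0.77 to 2.2]. It was the member furthest apart between states, and it stood below the level at which genes were tested. The gene lies on chromosome 6, 7675169 to 7693254, minus strand.

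Transporter genes did not move as a block. Slc1a5, the most abundant member, was at 349 CPM in KO-labelled aTreg against 394 CPM in WT aTreg, and at 296 CPM in KO-labelled rTreg against 344 CPM in WT rTreg. Within each state the KO-labelled library was lower, while KO-labelled aTreg stood close to WT rTreg. Its log2 ratio was −0.17 in aTreg [−0.22 to −0.12] and −0.21 in rTreg [−0.26 to −0.16]. Slc1a5 fell by 0.19 log2 units (SE 0.0669, edgeR adjusted p = 0.0319), a call lost with DESeq2 (adjusted p = 0.125) and with the states as replicates (adjusted p = 0.322). Slc1a5 lies on chromosome 7, 16781340 to 16798274, plus strand.

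Slc7a5 and Slc3a2 encode the light and heavy chain of 1 transporter, and their ratios had opposite signs. In aTreg the log2 ratio was 0.29 [0.17 to 0.41] for Slc7a5 and −0.28 [−0.36 to −0.20] for Slc3a2. In rTreg both counting intervals spanned 0, at 0.11 [−0.01 to 0.24] for Slc7a5 and −0.08 [−0.17 to 0.01] for Slc3a2. Slc7a5 was at 62.8 CPM in KO-labelled aTreg against 51.6 CPM in WT aTreg, and at 57.7 CPM in KO-labelled rTreg against 53.5 CPM in WT rTreg. Slc3a2 was at 121 CPM in KO-labelled aTreg against 147 CPM in WT aTreg, and at 109 CPM in KO-labelled rTreg against 115 CPM in WT rTreg. For Slc7a5 the KO-labelled libraries were the higher 2 of the 4, a separation not counted over all tested genes, and for Slc3a2 WT aTreg stood above the other 3. Neither passed the test: Slc7a5 had a log2 change of 0.20 (SE 0.0797, edgeR adjusted p = 0.0522) and Slc3a2 of −0.18 (SE 0.0705, edgeR adjusted p = 0.051). Both lay close to the threshold, and Slc3a2 passed it with DESeq2 size factors (adjusted p = 0.0472), with upper-quartile scaling (0.0159) and with a level minimum of 20 CPM (0.0477). Slc7a5 passed it with no level minimum (0.048). Within a library, Slc3a2 per base of exon stood at 2.02 times Slc7a5 in KO-labelled aTreg against 2.99 times in WT aTreg, and at 1.98 times in KO-labelled rTreg against 2.26 times in WT rTreg. The ratio of heavy to light chain mRNA was lower in KO-labelled aTreg by 0.57 on the log2 scale (−0.57 [−0.71 to −0.43]) and in KO-labelled rTreg by a smaller amount (−0.19 [−0.34 to −0.04]), by counting error alone. SLC3A2 also pairs with other light chains, and among their genes Slc7a6 was at 67.3 CPM in KO-labelled aTreg against 80.0 CPM in WT aTreg, and at 64.7 CPM in KO-labelled rTreg against 61.2 CPM in WT rTreg (edgeR adjusted p = 0.443). Slc7a7 and Slc7a8 had at most 3.59 and 0.569 CPM in any library. Slc7a5 lies on chromosome 8, 121881150 to 121907694, and Slc3a2 on chromosome 19, 8706882 to 8723369, both on the minus strand.

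Slc7a1, the cationic amino acid transporter gene, was at 89.8 CPM in KO-labelled aTreg against 89.3 CPM in WT aTreg, and at 92.6 CPM in KO-labelled rTreg against 90.6 CPM in WT rTreg. The 4 libraries lay within counting error of each other, with a log2 ratio of 0.01 in aTreg [−0.08 to 0.11] and 0.04 in rTreg [−0.06 to 0.13] (edgeR adjusted p = 0.78). It lies on chromosome 5, 148327410 to 148399904, minus strand. The sign of its change over both states turned with upper-quartile scaling.

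**Figure D3:**
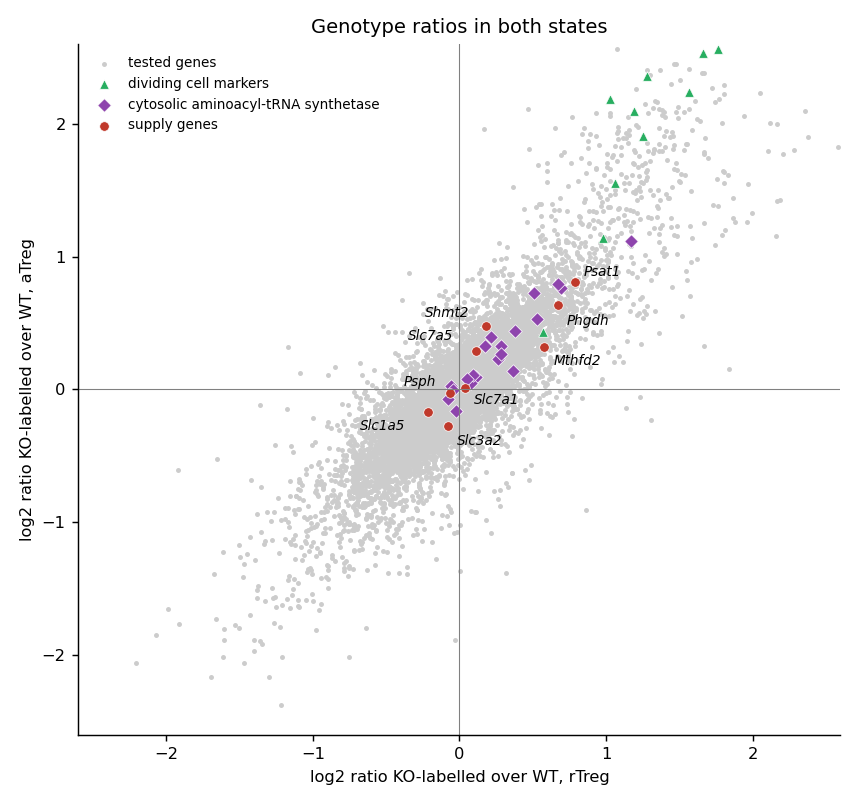
Log2 ratio of KO-labelled over WT in rTreg (x axis) and aTreg (y axis) for the tested genes within 2.6 log2 units of 0, with 29 genes outside the range, the 9 tested members, cytosolic aminoacyl-tRNA synthetases and dividing cell markers in color. Psat1 and Phgdh lie in the upper right part of the cloud, Slc1a5 and Slc3a2 in the lower left, and most dividing cell markers lie above 1 on both axes.

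Both genotype contrasts, which share no library, gave the same sign for all 10 members, as for 82.7% of the tested genes. The counting interval lay above 0 for 5 members in aTreg and 4 in rTreg, and below 0 for 2 in aTreg and 1 in rTreg. The share of all tested genes with such intervals was not counted, so these counts describe the members only. The members with a higher level in KO-labelled libraries stood beside higher markers of dividing cells in the same libraries. The part of dividing cells in these differences was not tested. In the WT pair, the dividing cell markers summed to 667 CPM in aTreg against 946 CPM in rTreg. In that pair Psat1 was at 50.7 CPM in aTreg against 50.5 CPM in rTreg, and Phgdh at 111 CPM in aTreg against 101 CPM in rTreg. The WT pair also differs in state, and its marker difference is smaller than those between genotypes. These values therefore do not weigh the part of dividing cells. The authors' deposited table, which holds a single comparison of genotype, lists adjusted p-values under 0.05 for 3 members: Psat1 (5.74e-07), Phgdh (3.93e-05) and Mthfd2 (0.0192). That table has 2060 genes in all under this threshold, and it covers these same libraries. Its log2 fold changes run as WT over KO, and it gives −0.80, −0.66 and −0.45 for these genes and −0.34 for Shmt2 with an adjusted p of 0.110.

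Between states, 2 transporter genes passed the test and no tested enzyme did. Asns, too low to be tested, was the member furthest apart between states, as given above. Of the 9 tested members, Slc3a2 and Slc1a5 were called higher in aTreg by the same edgeR fit, against 7.91% of all tested genes, and none was called lower, against 5.44%. No member was lower in aTreg at an unadjusted p under 0.05 either (0 of 9), and DESeq2 called 0. Slc3a2 was at 121 CPM in aTreg against 109 CPM in rTreg of the KO-labelled pair, and at 147 CPM in aTreg against 115 CPM in rTreg of the WT pair. Its change was 0.26 (log2, SE 0.0705; edgeR adjusted p = 0.026). Slc1a5 was at 349 CPM in aTreg against 296 CPM in rTreg of the KO-labelled pair, and at 394 CPM in aTreg against 344 CPM in rTreg of the WT pair. Its change was 0.23 (log2, SE 0.0669; edgeR adjusted p = 0.0405). Neither was called by DESeq2 (adjusted p = 0.332 and 0.249), and with DESeq2 size factors the Slc1a5 call was lost (adjusted p = 0.051).

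Among the enzymes, Phgdh had log2 ratios of aTreg over rTreg of 0.12 in the KO-labelled pair [0.04 to 0.19] and 0.15 in the WT pair [0.07 to 0.24], and did not pass (edgeR adjusted p = 0.207). Psat1 had 0.04 and 0.02, and Psph −0.02 and −0.06. Shmt2, Mthfd2 and Slc7a5 had ratios of opposite sign in the 2 genotypes, at 0.24, −0.09 and 0.13 in the KO-labelled pair against −0.05, 0.17 and −0.04 in the WT pair. No tested member was at least 2-fold apart between states, which 1.08% of tested genes were in the KO-labelled pair and 2.59% in the WT pair. The genotype and state ratios of a gene share libraries and are not independent readings.

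**Figure D4:**
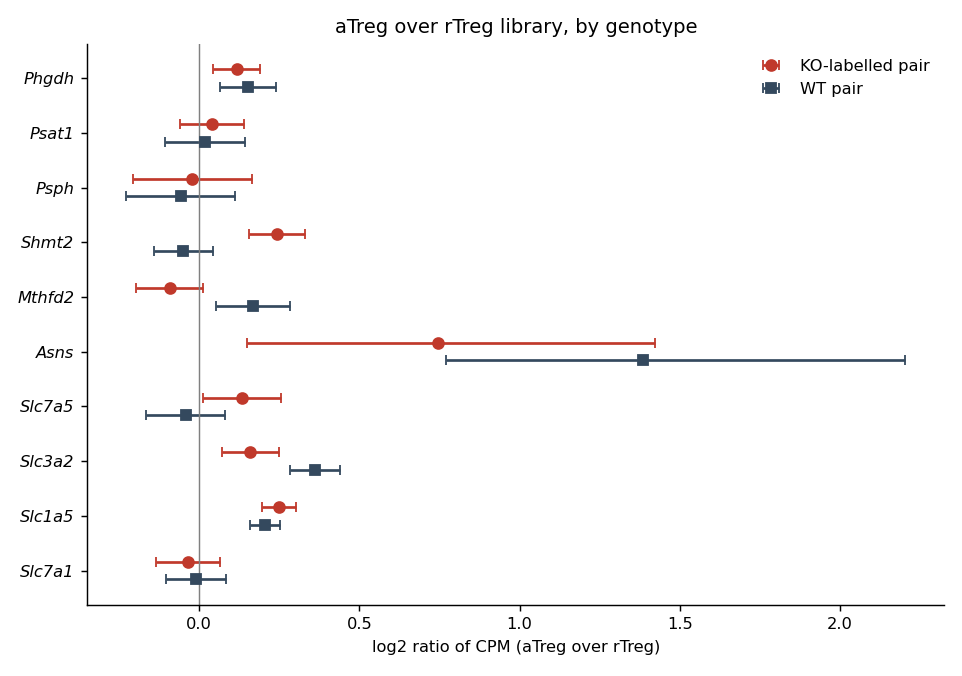
Log2 ratio of CPM, aTreg over rTreg library, for each gene in the KO-labelled and the WT pair, with 95% exact binomial counting intervals. Slc3a2 and Slc1a5 lie above 0 in both pairs, Psat1, Psph and Slc7a1 span 0, and Asns lies furthest to the right, at 0.74 and 1.39.

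Levels were also set against each other per kilobase of annotated exon. Slc1a5 had the highest mean over the 4 libraries, 82.8 CPM per kb, followed by Phgdh at 54.6, Slc3a2 at 34.8, Shmt2 at 33.5, Mthfd2 at 20.3, Psat1 at 16.3 and Slc7a5 at 15.2. Slc7a1 at 7.86, Psph at 6.19 and Asns at 0.870 CPM per kb were lowest. Neighbours in that order changed places between libraries. Shmt2 stood at 40.3 CPM per kb against 34.2 for Slc3a2 in KO-labelled aTreg, and at 29.0 against 41.6 in WT aTreg. Psat1 stood above Slc7a5 in KO-labelled aTreg (20.9 against 16.9 CPM per kb) and below it in WT aTreg (11.9 against 13.9 CPM per kb). Slc1a5 exceeded Slc7a5 per base 4.93 times in KO-labelled aTreg against 6.78 times in WT aTreg, and 4.56 times in KO-labelled rTreg against 5.72 times in WT rTreg. Which part of each annotated exon set these cells transcribe was not measured, so the order is approximate.

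The counts over the other pathway lists are set against the shares of all tested genes, 24.4% called higher and 22.8% called lower. Of 19 other folate and glycine cleavage genes, 12 reached the level tested, of which 3 rose and 2 fell, shares near those of all tested genes. Tyms, thymidylate synthase, was at 53.2 CPM in KO-labelled aTreg against 19.6 CPM in WT aTreg, and at 60.2 CPM in KO-labelled rTreg against 22.4 CPM in WT rTreg (edgeR adjusted p = 2.19e-07). Gcsh, a carrier protein of the glycine cleavage system, had log2 ratios of 0.76 in aTreg and 0.60 in rTreg (edgeR adjusted p = 0.00299). Tyms is also a gene of S phase, and it stood beside the higher dividing cell markers. The folate carrier gene Slc19a1 fell (−0.30 in aTreg and −0.58 in rTreg, edgeR adjusted p = 0.00616), as did Fpgs, which retains folate in cells (−0.32 and −0.43, 0.0271). DESeq2 made neither of these lower calls. Glycine decarboxylase, Gldc, without which glycine cleavage does not run, had at most 0.341 CPM in any library.

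Of 12 purine synthesis genes, all tested, 3 rose, near the 24.4% of all tested genes, and 1 fell, against 22.8%. Paics, which acts in the middle of the route, was at 133 CPM in KO-labelled aTreg against 84.3 CPM in WT aTreg, and at 138 CPM in KO-labelled rTreg against 95.2 CPM in WT rTreg (edgeR adjusted p = 1.38e-05). Gmps, which makes GMP, rose with log2 ratios of 0.40 and 0.52, Adss, which acts toward AMP, with 0.11 and 0.31. Impdh1, on the way to GMP, fell (−0.13 and −0.35, edgeR adjusted p = 0.0156), while its relative Impdh2 had −0.09 and 0.08. Gart and Atic, the steps that take up formyl units from folate, did not pass, with ratios of −0.26 and −0.11 for Gart and of −0.02 and 0.05 for Atic. Adss (adjusted p = 0.208) and Impdh1 (0.163) were not called by DESeq2.

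In the methionine cycle and polyamine list, 11 of 13 genes were tested, of which 3 rose and 3 fell, near the 24.4% and 22.8% of all tested genes. Ahcy, which clears S-adenosylhomocysteine, was at 137 CPM in KO-labelled aTreg against 70.5 CPM in WT aTreg, and at 128 CPM in KO-labelled rTreg against 69.7 CPM in WT rTreg (edgeR adjusted p = 4.19e-07). Mtap, the methionine salvage enzyme, had ratios of 0.37 and 0.36, and Odc1, the first enzyme of polyamine synthesis, 0.43 and 0.36. Methionine synthase Mtr (−0.23 and −0.35), its reductase Mtrr (−0.43 and −0.21) and Mat2b (−0.20 and −0.21) fell. DESeq2 made none of these 3 lower calls and did not call Mtap (adjusted p = 0.111).

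Of 16 other amino acid synthesis genes in the table, 13 were tested, and 4 rose and 1 fell, against 24.4% and 22.8% of all tested genes. Got2, the mitochondrial aspartate aminotransferase, was at 171 CPM in KO-labelled aTreg against 86.9 CPM in WT aTreg, and at 153 CPM in KO-labelled rTreg against 86.4 CPM in WT rTreg (edgeR adjusted p = 5.45e-07). Ass1, argininosuccinate synthase, had log2 ratios of 0.52 and 0.73, and Got1, the cytosolic aminotransferase, 0.41 and 0.36. Bcat2, a branched-chain aminotransferase, fell (−0.27 and −0.20), a call DESeq2 did not make (adjusted p = 0.289). Of 23 other amino acid transporter genes, 14 were tested, of which 1 rose and 5 fell, against 24.4% and 22.8% of all tested genes. The riser was Sfxn1, a mitochondrial serine transporter, at 71.6 CPM in KO-labelled aTreg against 44.4 CPM in WT aTreg, and at 78.0 CPM in KO-labelled rTreg against 48.9 CPM in WT rTreg (edgeR adjusted p = 1.01e-05). Slc38a7 (−0.42 and −0.43), the lysosomal arginine sensor gene Slc38a9 (−0.28 and −0.26) and Sfxn3 (−0.21 and −0.24) fell, and DESeq2 called 1 transporter gene lower in place of 5.

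No tested gene of the amino acid response list was called higher in the KO-labelled libraries. The list leaves out the members, several of which ATF4 raises in many cell types. It also leaves out the aminoacyl-tRNA synthetase genes, of which 12 of 20 were called higher, as set out below. The list is therefore not a full reading of that response. Of the 16 listed genes in the table, 11 were tested, and none rose and 5 fell by edgeR (0 higher at an unadjusted p under 0.05, and 0 by DESeq2), against 24.4% higher and 22.8% lower over all tested genes. Atf4 itself was at 267 CPM in KO-labelled aTreg against 287 CPM in WT aTreg, and at 242 CPM in KO-labelled rTreg against 273 CPM in WT rTreg (edgeR adjusted p = 0.122). Its activity is set largely at translation, which mRNA counts do not show. Ddit4, an inhibitor of mTORC1 signalling, was at 128 CPM in KO-labelled aTreg against 218 CPM in WT aTreg, and at 102 CPM in KO-labelled rTreg against 203 CPM in WT rTreg (edgeR adjusted p = 1.26e-06). Pck2, a mitochondrial enzyme, had log2 ratios of −0.46 and −0.55, and Eif2ak4, the kinase that senses uncharged tRNA, −0.42 and −0.32. DESeq2 called 3 of the list lower. With no level minimum 1 gene of the list was called higher. Myc, which drives many growth genes, was at 153 CPM in KO-labelled aTreg against 174 CPM in WT aTreg, and at 129 CPM in KO-labelled rTreg against 143 CPM in WT rTreg (edgeR adjusted p = 0.0505), and was called lower with DESeq2 size factors (0.0452).

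Aminoacyl-tRNA synthetases charge tRNA with amino acids. Of 20 cytosolic aminoacyl-tRNA synthetase genes, all tested, 12 rose and none fell by edgeR (0 lower at an unadjusted p under 0.05, and 0 by DESeq2), with median log2 ratios of 0.25 in aTreg and 0.24 in rTreg. Over all tested genes 24.4% were called higher and 22.8% lower. Wars, the tryptophan enzyme, which interferon-gamma also induces, was at 187 CPM in KO-labelled aTreg against 86.8 CPM in WT aTreg, and at 218 CPM in KO-labelled rTreg against 97.1 CPM in WT rTreg (edgeR adjusted p = 9.78e-08). Aars had ratios of 0.77 and 0.69 and Gars, the glycine enzyme, 0.79 and 0.67. Sars, the serine enzyme, was at 168 CPM in KO-labelled aTreg against 124 CPM in WT aTreg, and at 171 CPM in KO-labelled rTreg against 132 CPM in WT rTreg. DESeq2 called 7 of the 20 higher, and edgeR with the states as replicates 6.

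**Figure D5:**
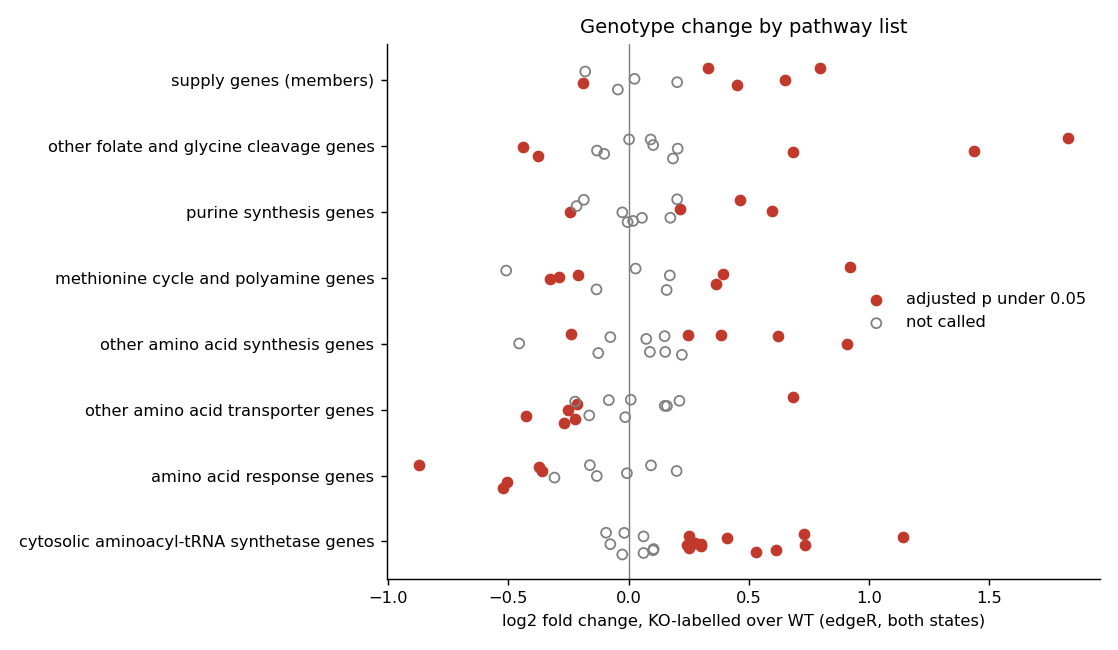
Log2 fold change of KO-labelled over WT over both states (edgeR) for each tested gene of the members and of 7 pathway lists, with filled points where the adjusted p was under 0.05. The synthetase list has 12 filled points, all to the right of 0, and the amino acid response list 5, all to the left.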

How the data were processed

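RNA-seq libraries were made from Treg RNA with a SMARTER mRNA kit, per the labels' protocols. Raw gene counts were deposited; HISAT2 2.2.1, featureCounts 2.0.1 and GRCm38 are named in the submitters' processing notes. The second deposited table holds variance-stabilised log2 values and 1 WT over KO comparison with its log2 fold changes, p-values, test statistic (a score) and mean normalised signal, per the file headers; strand setting and read handling were not stated.

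Counts were tested with edgeR 4.0.16 (R 4.3.3; TMM, quasi-likelihood, state and genotype additive, 1 residual degree of freedom, Benjamini-Hochberg, threshold 0.05). Genes with a mean of 5 CPM or more were tested, holding 99.31% of counts. Per-library log2 ratios used a prior count of 2. Intervals (95%, exact binomial or Poisson; normal for ratios of ratios) cover counting error only; 3 counts, the limit a count of 0 allows, are 0.144 to 0.171 CPM. DESeq2 1.42.0, other scalings, other level minimums and states as replicates were alternatives. The fit was tested on simulated data with 4 independent libraries and no state change, which cannot speak to libraries that share animals. Exon positions came from GENCODE on GRCm38, near copies from BLAST. The members and lists were chosen with earlier results of these data known. Genes named from each list were up to 3 called per direction, with the largest smaller absolute ratio of the 2 states, plus relatives of the members, Atf4 and Myc; Gldc, Gart, Atic, Impdh2 and Sars were chosen after their values were seen. A gene of the folate list is not reported here.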

Additional observations from a re-analysis of the deposited data

Results flagged for a closer look

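With 1 library per combination, none of the following differences between groups was tested; each is listed because the log2 ratios had opposite signs. For aTreg over rTreg, Shmt2 had 0.24 in the KO-labelled pair and −0.05 in the WT pair. Mthfd2 had −0.0913 in the KO-labelled pair and 0.17 in the WT pair. Slc7a5 had 0.13 in the KO-labelled pair and −0.0419 in the WT pair. For KO-labelled over WT, the cytosolic folate enzyme gene Mthfd1 had 0.13 in aTreg and −0.13 in rTreg, and the light chain gene Slc7a6 had −0.24 in aTreg and 0.0864 in rTreg.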

How the results depend on the processing

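The Psat1, Phgdh and Mthfd2 genotype calls held under every alternative run. DESeq2 called 1370 genes higher and 1157 lower for genotype, 289 higher and 134 lower for state. With the states as replicates, edgeR called 929 genes higher and 697 lower for genotype. With no level minimum, 793 genes were lower in aTreg. The number of members called lower for genotype was 2 with DESeq2 size factors, 2 with upper-quartile scaling and 2 with a minimum of 20 CPM, and 0 with DESeq2's test and 0 with states as replicates. For state, 1 member was called higher with DESeq2 size factors, 1 with upper-quartile scaling and 0 with DESeq2's test. In the genotype tests, signs turned for 3 of the genes named, all near 0: Slc7a1 at −0.0216 and Ripk1 at −0.0075 (upper quartile), and Mthfd1 at −0.0028 (DESeq2 size factors), −0.0442 (upper quartile), −0.00069 (20 CPM) and −0.0036 (DESeq2). The cause was not tested. Among the members' ratios of 2 libraries, signs turned for Slc7a1 in both genotype ratios (upper quartile) and for Psat1 between WT states (upper quartile and deposited values), again near 0. On the deposited variance-stabilised values most members' ratios lay nearer 0, and 5 left their counting interval, with Psat1 at 0.65 in aTreg and 0.62 in rTreg. The labels give no replicate numbers to pair by; the state term compares genotypes within each state, and states as replicates is the fit without it. Asns, at 24 to 65 counts, is limited by depth, and a single library per combination limits every ratio.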
